A study of Drosophila melanogaster with 10 samples.

Results

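The genes of the cytosolic ribosome were described in ribosome-bound mRNA pulled down from fly heads with and without human PARIS. The pull-down was aimed at dopaminergic (DA) neurons. Members were all FlyBase gene identifiers whose symbol begins with RpL or RpS followed by a digit or by P, plus sta, the gene of a small subunit protein. Mitochondrial ribosomal proteins and RNA polymerase subunits did not enter. The rule found 93 of 17747 gene identifiers in the deposited tables. By symbol, 51 were counted to the large subunit, 39 to the small subunit and 3 (RpLP0, RpLP1 and RpLP2) to the stalk. The 51 include RpL24-like and RpLP0-like, counterparts of yeast assembly factors.

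Cytosolic ribosomes translate all mRNAs of the nuclear genome. The small subunit reads the mRNA, the large subunit joins the amino acids, and the stalk is the flexible arm of the large subunit that recruits the elongation factors. Each ribosome holds 1 copy of nearly every ribosomal protein, so their mRNAs are made in similar amounts, belong to the most abundant of a cell and are translated together according to growth conditions. In flies, loss of 1 copy of many of these genes gives the Minute phenotype of short bristles and slow development. Several fly ribosomal protein genes have a duplicate, often with expression mainly in the germ line. PARIS (ZNF746) is a human zinc finger repressor of transcription that accumulates when parkin, a ubiquitin ligase mutated in Parkinson's disease, fails, and C571A is a mutant that the study regards as inactive in transcription.

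The TRAP libraries were made by translating ribosome affinity purification, in which ribosomes that carry a GFP-tagged ribosomal protein are pulled down with an antibody to GFP and the bound mRNA is sequenced. PARIS WT flies carried UAS-PARIS WT, PARIS C571A flies carried UAS-PARIS C571A, and TRAP control flies carried neither, with 3 libraries in each group. All 9 TRAP libraries shared the driver dTH-Gal4, of the tyrosine hydroxylase gene, and UAS-GFP::RpL10A, so that the tag sat on a product of this same gene family. Whole brain, as its label names it, was 1 library of w1118 wild type flies without pull-down. For this library the methods speak instead of total mRNA of the whole head. Males and females were mixed in the TRAP libraries. The labels give post natal day 30 as the age, whereas the methods speak of collection 2 days after eclosion. Each PARIS WT library came from 1500 heads and each PARIS C571A or TRAP control library from 500 heads, so the number of heads cannot be told apart from PARIS WT. In such bulk samples, fewer cells of a type and less RNA per cell cannot be told apart.

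Gene counts per library summed to between 8819116 and 50102982 in TRAP libraries and to 11619907 in whole brain, of which ribosomal RNA, other small RNA and mitochondrially encoded genes took 33.4% to 70.2% in the TRAP libraries. The DA neuron markers Ddc and Vmat had at least 1946 counts in every TRAP library, while ple was at 0 counts in PARIS WT 1 and TRAP control 2 and DAT at 0 counts in 6 of 9. Photoreceptor markers (4 genes) had a summed level of 10755 CPM (counts relative to the TMM-scaled library size) in PARIS WT, 12820 CPM in PARIS C571A and 11920 CPM in TRAP control, against 393 CPM, 390 CPM and 420 CPM for the 4 DA markers. How much of the ribosomal protein mRNA came from cells other than DA neurons was not tested. Summed CPM of 20 testis genes ranged from 19.5 to 33.7 in PARIS WT, from 141 to 168 in PARIS C571A and from 456 to 512 in TRAP control, and its part in the results below was not tested.

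Transcription of fly ribosomal protein genes is known to start within a run of pyrimidines, the TCT initiator, instead of the usual initiator. Of the 93 genes, 43 (46.2%) held TCTTT on the sense strand in the 30 bases centred on the annotated start of their canonical transcript, as did 3.59% of 13968 protein-coding genes. The other strand of the same window held it in 0 members and in 2.76% of all genes. This width was chosen after seeing the data, since annotated starts vary by some bases: within the 10 bases first set, TCTTT lay in 4 members (4.3%) and in 0.651% of all genes. The second core promoter element examined, the palindrome TATCGATA (the DRE), lay between 250 bases before and 50 bases after the start in 28 members (30.1%) and in 8.94% of all genes. Start windows are shown for RpLP1, RpL24, RpL26, RpS3, RpS2 and RpS27, whose counts turned on the table or were lost from a group, and for RpL10Ab, the fly gene of the tagged protein. They are from the genome of Release 6 (RefSeq), with the first TCTTT in capitals. RpLP1 lies at 2L:419937-419966 (plus strand), RpL24 at 2L:13395078-13395107 (minus strand), RpL26 at 3L:18899089-18899118 (plus strand), RpS3 at 3R:23358797-23358826 (plus strand), RpS2 at 2L:9897507-9897536 (minus strand), RpS27 at 3R:25247500-25247529 (minus strand) and RpL10Ab at 3L:11822836-11822865 (plus strand).
RpLP1: cacactgcatatcaactgcTCTTTccggtt
RpL24: gtttccacttccgtttTCTTTtcttttcgt
RpL26: ctaaccgcgacccatctgtcaaattTCTTT
RpS3: gcgcgggcacactggccTCTTTcttttctg
RpS2: tctaagcggatggctcggccatttcgtttt
RpS27: tgttcagcattatttagtgcattctcgggc
RpL10Ab: ctaaaaaccgattttcacttcctttctaaa
The first 4 windows hold TCTTT and those of RpS2, RpS27 and RpL10Ab do not. Only this exact string was counted, not other runs of pyrimidines such as cttcctttct in RpL10Ab. A gene without TCTTT is therefore not shown to lack a TCT initiator. In RpL24 and RpS3 a further TCTTT follows or overlaps the first and is not marked.

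Of the 93 members, 82 reached 1000 or more counts in a library, and 69 of these were measured without a break: no library at 0 counts, no TRAP library over 5-fold below the gene's median CPM, and no difference over 1.5 times between tables. These 69 are called complete members here. They were set apart after seeing the counts, so their numbers describe them and were given no test of their own. The other 13 abundant members lost their counts in some libraries, and the remaining 11 members stayed under 1000 counts in every library. Among these, RpL7-like was at 0 in some TRAP libraries and had 677 to 973 counts in the others. Of these 11, 10 were at 0 in some TRAP library and RpL22-like and RpS28-like were at 0 in all 9.

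The same library did not always hold the same count in different tables. Libraries of PARIS WT and PARIS C571A occur both in a table of these groups alone and in a table of the 3 TRAP groups, and 9 of 93 members (9.68%) differed between them in 1 or more of the 6 libraries, with 4.3% of all 17691 genes as the background. The other 84 members were identical. Among the tables other than that of the PARIS groups alone, every shared library was identical. Among genes with a mean of at least 1000 counts, 9 of 82 members differed, with 8.38% of all such genes as the background. A total of 5 members (5.38%; background 3.05%) held 0 counts in one table and at least 20 in the other, in 28 pairs of gene and library.

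RpLP1, the acidic stalk protein P1 (FBgn0002593, 2L:419952-420864), was at 0 in a different group in each table. In the table of the 3 groups it had 10554, 6734 and 13628 counts in PARIS WT, 0 in all 3 libraries of PARIS C571A, and 7178, 7329 and 6027 in TRAP control. In the table of the PARIS groups it had 0 in all 3 libraries of PARIS WT and 8920, 8327 and 15875 in PARIS C571A. Every PARIS library thus held many counts in 1 table and none in the other.

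RpL24, a protein of the large subunit at the interface to the small one (FBgn0032518, 2L:13393687-13395131), was at 0 in all 6 PARIS libraries of the table of the 3 groups, beside 6402, 7561 and 5875 counts in TRAP control. The table of the PARIS groups gave it 9237, 5694 and 11257 counts in PARIS WT and 9078, 8245 and 16981 in PARIS C571A. Here the counts were present in every library of one table and absent in every PARIS library of the other.

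RpS3, at the entry of the mRNA channel (FBgn0002622, 3R:23358812-23360207), and RpS27, a zinc finger protein of the small subunit (FBgn0039300, 3R:25245955-25247514), were swapped library by library. RpS3 had 10224, 0 and 12072 counts in PARIS WT, 0, 8937 and 0 in PARIS C571A and 7821, 0 and 0 in TRAP control of the table of the 3 groups. In the table of the PARIS groups it had 0, 6999 and 0 counts in PARIS WT and 12110, 0 and 18507 in PARIS C571A. The libraries with counts of RpS3 were thus swapped between the tables. RpS27 had 7916, 4945 and 0 counts in PARIS WT, 0, 6088 and 0 in PARIS C571A and 5128, 6341 and 3790 in TRAP control. In the table of the PARIS groups RpS27 had 0, 0 and 8936 counts in PARIS WT and 7952, 0 and 14695 in PARIS C571A. For both genes each of the 6 PARIS libraries was at 0 in exactly 1 of the 2 tables.

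RpS2 (FBgn0004867, 2L:9896265-9897552), which lies near the mRNA entry as well, had 0, 0 and 0 counts in PARIS WT, 1867, 6031 and 0 in PARIS C571A and 29736, 0 and 24663 in TRAP control of the table of the 3 groups. In the table of the PARIS groups it was among the most abundant members, with 35045, 25438 and 42271 counts in PARIS WT and 43984, 38386 and 65428 in PARIS C571A. RpS7, a protein of the small subunit, kept some counts throughout. It had 1277, 9044 and 1328 in PARIS WT, 1317, 1689 and 1610 in PARIS C571A and 8849, 11934 and 858 in TRAP control, against 12705, 1901 and 14506 in PARIS WT and 16173, 12390 and 25881 in PARIS C571A of the other table. The low values were not at 0 but about an order below the high ones, and the library that was high changed with the table.

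RpL7A, RpL27 and RpL21 of the large subunit differed without reaching 0 in either table. RpL7A had 28690, 22988 and 1336 counts in PARIS WT and 28843, 23275 and 58575 in PARIS C571A in the table of the 3 groups, and 32259, 14926 and 38078 in PARIS WT and 34788, 26692 and 27651 in PARIS C571A in the other. RpL27 differed only in PARIS C571A 3, with 25059 counts in the first table and 99 in the other. RpL21 differed slightly, for example with 7226 and 7167 counts in PARIS WT 1.

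Other abundant members lost their counts in the same way in every table that held the library. RpL26, next to the exit of the nascent chain (FBgn0036825, 3L:18898875-18900408), had 0 counts in the 3 libraries of PARIS WT, 13158, 10194 and 0 in PARIS C571A and 8853, 10861 and 7953 in TRAP control. RpL27A was at 0 only in PARIS C571A 3, with 5560 to 12118 counts in the other TRAP libraries. RpS28b was at 0 in PARIS WT 1 and in whole brain, with 5112 to 18190 counts elsewhere. RpL3 held 1003 counts in TRAP control 3 and 1115 in whole brain, whereas the other TRAP libraries had 20480 to 55306. Among the 82 members with a mean of at least 1000 counts, 9 were at 0 in some TRAP library, with 66 of 1539 genes of that abundance (4.29%) as the background.

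Genes that overlap these members or lie within 300 bases were counted as well. In the TRAP libraries they had at most 152 counts near RpLP1, 252 near RpL24, 44 near RpL26, 280 near RpS2, 45 near RpS27 and 940 near RpS3, and the highest such value was 3115 counts in a neighbour of RpL27. In whole brain, small nucleolar RNA genes within members reached 19477 counts (snoRNA:Psi28S-291, in RpL3, which itself had 1115) and 3417 counts (snoRNA:Psi18S-1377a, in RpS7). Where the reads of the members at 0 went was not tested.

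**Figure D1:**
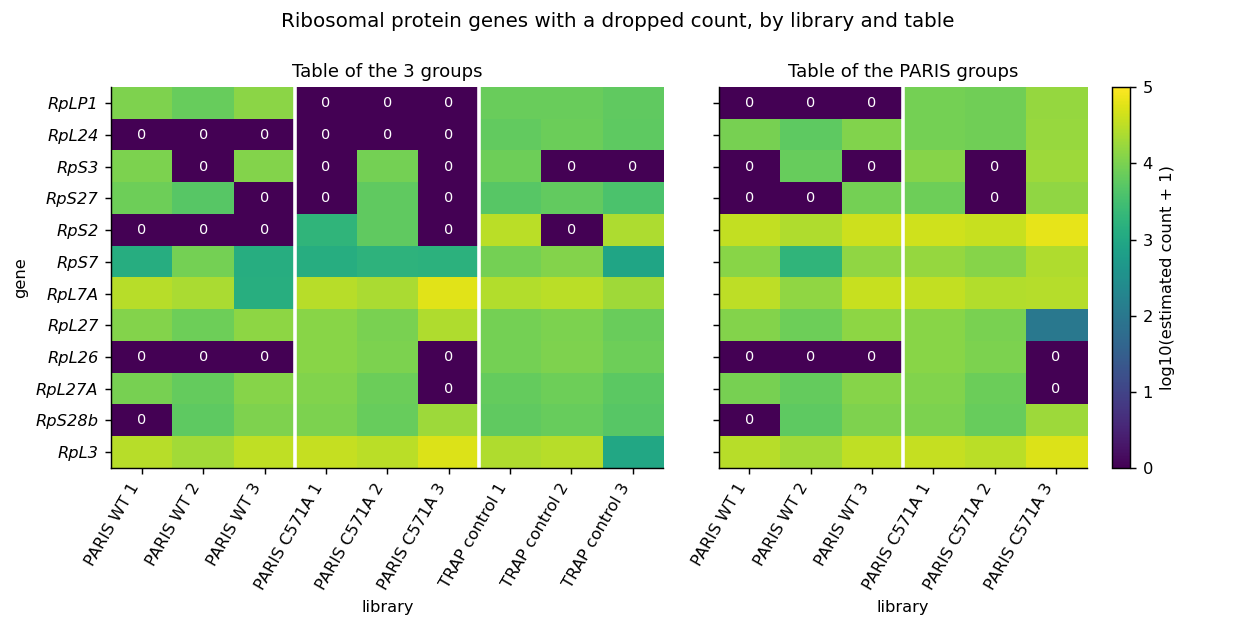
Estimated counts, as log10 of the count plus 1, of 12 abundant members that lost counts in a library, in the table of the 3 groups (left) and the table of the PARIS groups (right). Columns are libraries, rows are genes, and cells at 0 counts are marked 0. RpLP1 is at 0 in the 3 PARIS C571A libraries on the left and in the 3 PARIS WT libraries on the right, whereas RpL26 is at 0 in the same PARIS libraries on both sides.

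The calls of the comparisons fell on these genes. Each comparison was fitted over all genes of its table by edgeR's quasi-likelihood F-test, with p-values adjusted by Benjamini-Hochberg over all genes tested, and called at an adjusted p under 0.05. Of 84 members tested in PARIS WT against TRAP control, 2 were called lower (background 0.608% of 9697 genes), RpL24 and RpL26, both with 0 counts in all PARIS WT libraries. RpL24 was at least 2116-fold lower (adjusted p = 0.001342) and RpL26 at least 2938-fold lower (adjusted p = 0.001342), each against a floor of 3 counts per library. Members called higher numbered 0 (background 0.103%), while 57 of 84 were higher at an unadjusted p under 0.05 (background 4.23%) and DESeq2 called 40 of 85 higher (background 1.55%). DESeq2 called 3 lower (background 5.32%), adding RpS2 to RpL24 and RpL26.

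Of 84 members tested in PARIS WT against PARIS C571A, RpLP1 was the 1 called lower (background 0.0423% of 9460 genes; at least 2119-fold, adjusted p = 0.00096) and 0 were called higher (background 0.0106%; 45 at an unadjusted p under 0.05; 20 of 85 by DESeq2, background 1.39%). DESeq2 called RpL26 lower beside RpLP1, which made 2 (background 1.87%). This call rested on the table: when counts were taken from the table of the 3 groups, the log2 fold change of RpLP1 was 16.71 in the opposite direction (adjusted p = 0.001101), and with the higher count of the 2 tables it was 0.61 (SE 0.11, adjusted p = 0.2227). Of 85 members tested in PARIS C571A against TRAP control, 2 were called lower (background 0.15% of 9986 genes), RpLP1 (at least 3438.5-fold, adjusted p = 0.001652) and RpL24 (at least 3320.3-fold, adjusted p = 0.001652). Members called higher numbered 0 (background 0.02%), with 9 at an unadjusted p under 0.05 (background 4.52%) and 3 by DESeq2 (RpS3A, RpS20 and RpS29, background 1.22%). DESeq2 called 3 lower (background 2.74%), with RpS7 as the addition. The test across all 3 groups called 2 of 86 members, RpLP1 (adjusted p = 2.676e-05) and RpL24 (adjusted p = 0.0004647), with 0.751% of genes as the background.

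With the higher count of the 2 tables in each PARIS library, an alternative chosen after seeing the data, the calls on RpLP1 and RpL24 ended. RpLP1 then had 582 ± 67.6 CPM in PARIS WT and 381 ± 31.6 CPM in PARIS C571A (SD, n = 3), with a log2 difference of -0.01 between PARIS C571A and TRAP control (adjusted p = 0.9942). RpL24 differed by 0.38 between PARIS WT and TRAP control (adjusted p = 0.3796), by 0.34 between PARIS WT and PARIS C571A (adjusted p = 0.4637) and by 0.08 between PARIS C571A and TRAP control (adjusted p = 0.9502), all on the log2 scale. RpL26 remained called lower in PARIS WT against TRAP control (adjusted p = 0.001644), being at 0 in PARIS WT in both tables.

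The 69 complete members lay higher in PARIS WT than in TRAP control as a group, without passing the test one by one. All 69 had a log2 fold change above 0 in PARIS WT against TRAP control, from 0.04 to 0.78 with a median of 0.41, whereas 48.4% of all genes tested were above 0 and their median was -0.02. In 61 of 69 every PARIS WT library was above every TRAP control library (background 9.6%), and 54 of 69 had an unadjusted p under 0.05 with the fold change above 0 (background 4.23%). None passed the adjusted threshold with edgeR, and DESeq2 called 37 of 69 higher (background 1.55%). The median over complete members was 0.42, 0.34 and 0.50 in the 3 PARIS WT libraries, and -0.16, 0.01 and 0.14 in the 3 TRAP control libraries, relative to the TRAP control mean on the log2 scale. No PARIS WT library overlapped with a TRAP control library in this median. As the medians of the TRAP control libraries show, members shifted together from library to library. Counts over the 69, here and below, are therefore not counts of independent observations.

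Against PARIS C571A the complete members lay higher in PARIS WT by a smaller amount. The log2 fold changes ran from -0.09 to 0.76 with a median of 0.29 (all genes -0.03), 65 of 69 were above 0 (background 47.3%), and in 42 of 69 the libraries did not overlap (background 8.15%). The unadjusted p was under 0.05 in 41 of 69 with the fold change above 0 (background 4.13%), none passed the adjusted threshold with edgeR, and DESeq2 called 19 higher (background 1.39%). Per library, the median was 0.28, 0.25 and 0.35 in PARIS WT relative to the mean of PARIS C571A.

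Between PARIS C571A and TRAP control the difference was within the spread of the libraries. The median log2 fold change was 0.13, with a range of -0.27 to 0.70, 58 of 69 were above 0 (background 50.5%), and libraries did not overlap in 12 of 69 (background 9.96%). The medians per library of 0.11, 0.01 and 0.32 in PARIS C571A overlapped those of TRAP control. Leaving out 1 library moved the median to 0.0694 without PARIS C571A 3, 0.0802 without TRAP control 1, 0.21 without TRAP control 3 and 0.22 without PARIS C571A 2. As the 3 comparisons share their libraries, they are not independent of each other.

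Large and small subunits were counted apart. Above 0 in PARIS WT against TRAP control were all 40 complete members of the large subunit (median log2 fold change 0.41) and all 27 of the small subunit (median 0.43). In PARIS WT against PARIS C571A, 37 of 40 (median 0.30) and 26 of 27 (median 0.24) were above 0. In PARIS C571A against TRAP control, 34 of 40 (median 0.12) and 23 of 27 (median 0.20) were. PARIS WT had the highest of the 3 group means in 65 of 69 complete members, and in 53 the order was PARIS WT, PARIS C571A, TRAP control.

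As a share of gene counts, after leaving out ribosomal RNA, other small RNA and mitochondrially encoded genes, the complete members took 10.5%, 10.5% and 11.5% in PARIS WT, 8.91%, 8.43% and 9.75% in PARIS C571A, and 7.54%, 8.60% and 9.71% in TRAP control. The means were 10.8% ± 0.605 in PARIS WT, 9.03% ± 0.67 in PARIS C571A and 8.62% ± 1.08 in TRAP control (SD, n = 3 each). All 3 PARIS WT libraries lay above the other 6, and the PARIS C571A libraries overlapped those of TRAP control. Shares of all 93 members include genes that lost their counts in some libraries, and so depend on the table. In the table of the 3 groups they were 12.7% ± 0.447 in PARIS WT, 10.5% ± 0.53 in PARIS C571A and 10.6% ± 0.85 in TRAP control. With the higher count of both tables in each PARIS library they were 13.3% ± 0.715 in PARIS WT and 11.1% ± 0.686 in PARIS C571A. Counts lost in TRAP control were not replaced by this. Either way the PARIS C571A libraries overlapped those of TRAP control. PARIS WT was also the group made from the most heads and with the lowest summed testis markers, and the part of either was not tested. Glial markers (4 genes) were above TRAP control in both PARIS groups but, unlike the family, had their highest mean in PARIS C571A. Their summed level was 761 to 917 CPM in PARIS WT, 903 to 1025 CPM in PARIS C571A and 662 to 720 CPM in TRAP control. Their median log2 fold change was 0.62 in PARIS WT against TRAP control (4 of 4 above 0), -0.26 in PARIS WT against PARIS C571A (1 of 4) and 1.14 in PARIS C571A against TRAP control (4 of 4), and their part was not tested. Fat body markers (4 genes) summed to 12546 to 13417 CPM in PARIS WT, 13387 to 14802 CPM in PARIS C571A and 7991 to 14368 CPM in TRAP control.

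**Figure D2:**
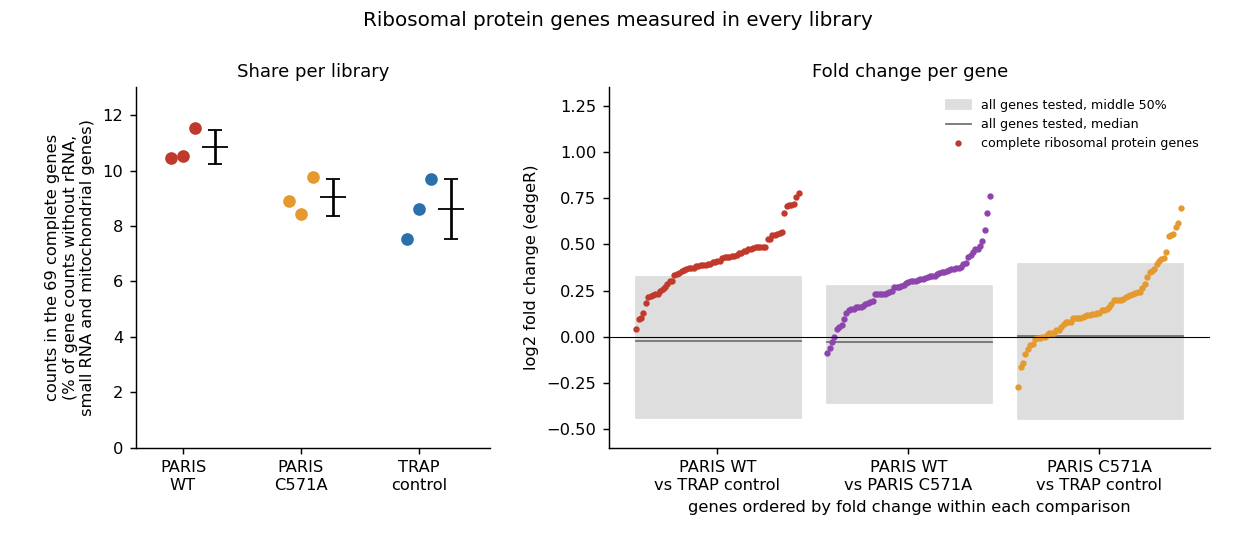
Left, the share of gene counts in the 69 complete members, in percent, with 1 point per library and bars for the mean and SD of each group of 3 libraries. Right, the log2 fold change of each complete member, sorted within each comparison, with the grey band for the middle 50% of all genes tested and the line for their median. The PARIS WT points lie above 10% and the others below, and all 69 points of PARIS WT against TRAP control are above 0.

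Single genes show how large these differences were. RpS29, a small zinc-binding protein of the small subunit, had 234, 216 and 228 CPM in PARIS WT, against 134, 147 and 145 CPM in TRAP control. Its log2 fold change of 0.67 (SE 0.10) missed the threshold (adjusted p = 0.05686). RpL36A, a protein of the large subunit, had 287, 255 and 297 CPM in PARIS WT and 155, 167 and 189 CPM in TRAP control (log2 fold change 0.72, SE 0.12, adjusted p = 0.08038). RpL37A, a zinc-binding protein of the large subunit, had 654, 570 and 689 CPM in PARIS WT and 316, 383 and 417 CPM in TRAP control (log2 fold change 0.78, SE 0.14, adjusted p = 0.09425). These 3 genes had the smallest p-values with higher values in PARIS WT, and in each the lowest PARIS WT library stood clear of the highest TRAP control library.

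At the other end was RpL10Ab, which encodes the endogenous protein RpL10A (uL1) of the L1 arm and is the fly gene of the tagged protein. It had 892, 1017 and 1016 CPM in PARIS WT, against 877, 910 and 1049 CPM in TRAP control, so the groups overlapped. Its log2 fold change of 0.04 (SE 0.11, adjusted p = 0.9731) was the lowest of the 69 complete members. It was 0.23 in PARIS WT against PARIS C571A (adjusted p = 0.5343) and -0.14 in PARIS C571A against TRAP control (adjusted p = 0.8001). Counts of this gene may include mRNA of the GFP::RpL10A transgene, which all 9 TRAP libraries carry and which the gene table does not separate.

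In PARIS WT against PARIS C571A the smallest p-values on the higher side were those of RpS5a, RpS19a and RpL13A. RpS5a, a protein of the mRNA exit channel, had 568, 584 and 583 CPM in PARIS WT and 418, 419 and 441 CPM in PARIS C571A (log2 fold change 0.44, SE 0.07, adjusted p = 0.182). RpS19a, the fly ortholog of the gene first found mutated in Diamond-Blackfan anaemia, had 482, 477 and 500.4 CPM in PARIS WT and 321, 326 and 372 CPM in PARIS C571A (log2 fold change 0.52, SE 0.09, adjusted p = 0.2097). RpL13A, of the large subunit, had 1521, 1580 and 1672 CPM in PARIS WT and 1185, 1242 and 1301 CPM in PARIS C571A (log2 fold change 0.36, SE 0.07, adjusted p = 0.2538). All 3 were without overlap and none passed the threshold. RpS20, of the head of the small subunit, was 1 of the 4 complete members below 0, with 139, 136 and 174 CPM in PARIS WT and 170, 136 and 171 CPM in PARIS C571A (log2 fold change -0.09, adjusted p = 0.985).

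RpS20 instead separated both PARIS groups from TRAP control in level. It had 176, 141 and 178 CPM in PARIS C571A and 96.2, 112 and 113.8 CPM in TRAP control (log2 fold change 0.62, SE 0.14, adjusted p = 0.204). RpS3A, another protein of the small subunit, had 1125, 1059 and 1140 CPM in PARIS C571A and 795, 827 and 853 CPM in TRAP control (log2 fold change 0.43, SE 0.09, adjusted p = 0.1944). RpS29 was the third by p, with 205, 173 and 254 CPM in PARIS C571A and 137, 149 and 147 CPM in TRAP control (log2 fold change 0.55, SE 0.16, adjusted p = 0.3274). On the lower side, after RpLP1 and RpL24, stood RpS7, with 53.0, 81.9 and 43.2 CPM in PARIS C571A and 467, 586 and 64.5 CPM in TRAP control (log2 fold change -2.65, adjusted p = 0.3184). With the higher count of the 2 tables this value turned to 0.79.

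The stalk genes were measured with unequal precision. RpLP0, the base on which the P1 and P2 dimers sit, had 538, 545 and 537 CPM in PARIS WT and 415, 468 and 482 CPM in TRAP control (log2 fold change 0.25, SE 0.10, adjusted p = 0.4033). Against PARIS C571A, with 459, 474 and 445 CPM, its log2 fold change was 0.25 (SE 0.07, adjusted p = 0.3557). RpLP2, the partner of RpLP1, varied more between replicates, with 646, 662 and 843 CPM in PARIS WT and 569, 361 and 754 CPM in TRAP control (log2 fold change 0.35, SE 0.27, adjusted p = 0.7816). Against PARIS C571A RpLP2 was higher in PARIS WT by 0.67 on the log2 scale (SE 0.17, adjusted p = 0.3217), and in PARIS C571A against TRAP control its value was -0.27 (adjusted p = 0.882).

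**Figure D3:**
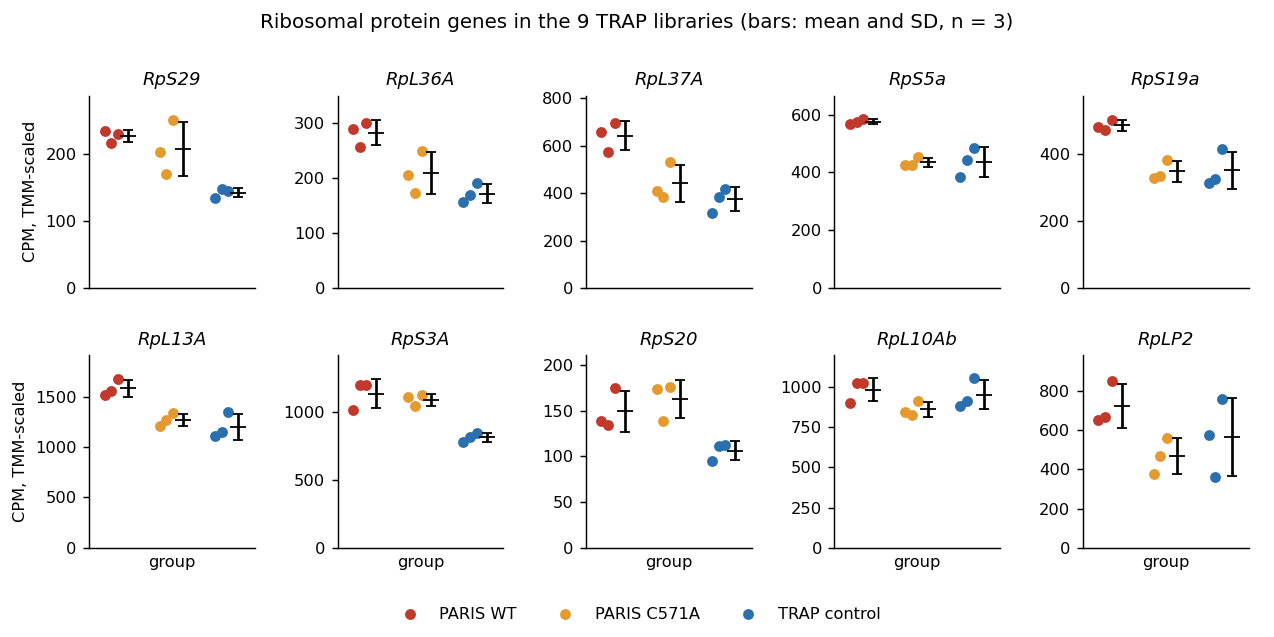
CPM, scaled by TMM in the table of the 3 groups, of 10 complete members in PARIS WT, PARIS C571A and TRAP control, with 1 point per library and bars for the mean and SD (n = 3). RpS29, RpL36A and RpL37A have their highest mean in PARIS WT, although the highest single library of RpS29 is PARIS C571A 3. RpS3A and RpS20 are lowest in TRAP control, and RpL10Ab overlaps between PARIS WT and TRAP control.

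Genes with related functions were read beside the family. Mitochondrial ribosomal proteins, which translate the few mRNAs of the mitochondrial genome, had a median log2 fold change of 0.17 in PARIS WT against TRAP control (44 of 69 tested above 0). Their median was -0.01 in PARIS WT against PARIS C571A (35 of 70 above 0) and 0.23 in PARIS C571A against TRAP control (44 of 69). Genes of cytosolic ribosome assembly and RNA polymerase I, which make and fold the ribosomal RNA, had medians of -0.20 (10 of 24 above 0), -0.09 (10 of 25) and 0.18 (15 of 25) in the same comparisons. With edgeR 0 genes of either list were called in any of the 3. At an unadjusted p under 0.05 there were 0 mitochondrial ribosomal proteins in each comparison and 2, 2 and 1 assembly genes in the same order, and DESeq2 called 0, 1 and 0 mitochondrial ribosomal proteins and 1, 0 and 1 assembly genes. Of all genes tested, 48.4%, 47.3% and 50.5% were above 0 in the same order. At an unadjusted p under 0.05, 7.4%, 4.32% and 5.32% of them were lower and 4.23%, 4.13% and 4.52% higher. The DESeq2 background was 5.32%, 1.87% and 2.74% lower and 1.55%, 1.39% and 1.22% higher. That of edgeR was 0.608%, 0.0423% and 0.15% lower and 0.103%, 0.0106% and 0.02% higher. The smallest p-values in PARIS WT against TRAP control were those of mRpL17 (log2 fold change 3.39, SE 1.85, adjusted p = 0.6119) and mRpL55 (0.89) among mitochondrial ribosomal proteins and of Non1, a GTPase of large subunit assembly (0.69, SE 0.12, adjusted p = 0.07691), and nop5, of the box C/D small nucleolar particles (-0.44, adjusted p = 0.2333). In PARIS WT against PARIS C571A they were mRpS35 (0.54), mRpL48 (0.61), Ns2 (0.59) and Nopp140 (-0.74), and in PARIS C571A against TRAP control mRpL3 (-1.15), mRpL50 (1.06), Non1 (0.52) and nop5 (-0.45).

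Levels between members were compared as CPM per kilobase of the longest annotated transcript. In TRAP control the highest members were RpS12 with 1933 ± 204 CPM per kilobase, RpL8 with 1542 ± 213, RpL13A with 1330 ± 143, RpL6 with 1326 ± 212.5 and RpL7A with 1254 ± 27.0 (SD, n = 3). RpL13A, RpL6 and RpL7A differed from each other by less than the SD of RpL13A, and RpL8 from RpL13A by about 1 SD. RpS2 had 1312 and 1561 CPM per kilobase in TRAP control 1 and 3 but 0 counts in TRAP control 2, and is therefore not placed in this order. The lowest of the 69 complete members were RpL38 with 44.8 ± 7.21, RpL24-like with 50.3 ± 12.5 and RpL30 with 53.5 ± 2.45 CPM per kilobase, again close to each other. This order depends on the annotated length. In CPM, RpL29 (37.7), RpL24-like (38.9) and RpL30 (39.3) lay below RpL38 (45.4) in TRAP control. Over all 93, RpL22-like and RpS28-like were at 0, and RpL10Aa (0.381 CPM per kilobase), RpS28a (0.49) and RpL37-2 (0.661) followed.

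The order of the levels was nearly the same in the 3 groups. RpS12 was the highest complete member in each, with 2263 CPM per kilobase in PARIS WT, 2091 in PARIS C571A and 1933 in TRAP control. The median over complete members was 583 CPM per kilobase in PARIS WT, 488 in PARIS C571A and 449 in TRAP control. From the lowest to the highest complete member the level spanned 34.4-fold in PARIS WT, 31.3-fold in PARIS C571A and 43.2-fold in TRAP control. Across the 69 genes the mean levels of PARIS WT and TRAP control correlated with Pearson's r = 0.99, a description across genes of shared length and composition.

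Duplicated genes were expressed mostly from 1 copy, with a pair of exceptions. RpS14a and RpS14b lie next to each other on the X chromosome (7933742-7934677 and 7934898-7935792) and their coding sequences are identical at 443 of 453 positions (97.8%). RpS14a held 65.2%, 65.3% and 65.4% of the level of the pair in PARIS WT, 63.7%, 60.1% and 63.0% in PARIS C571A, and 63.0%, 62.3% and 59.8% in TRAP control, per kilobase. RpS14a itself had 554, 513 and 561 CPM in PARIS WT and 350, 388 and 391 CPM in TRAP control (log2 fold change 0.53, SE 0.10, adjusted p = 0.09866), and RpS14b 0.30 (SE 0.13, adjusted p = 0.4335) in the same comparison. The 3 PARIS WT values lay above the other 6. Copies so alike share reads, and the split between them is uncertain. The first 120 coding bases show the likeness, with the 3 mismatches of this stretch in capitals.
RpS14a: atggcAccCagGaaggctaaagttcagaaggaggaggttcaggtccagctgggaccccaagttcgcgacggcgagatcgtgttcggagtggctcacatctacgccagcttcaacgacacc
RpS14b: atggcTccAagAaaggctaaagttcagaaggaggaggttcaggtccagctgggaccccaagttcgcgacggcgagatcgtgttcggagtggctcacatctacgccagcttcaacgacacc
After the mismatches near the start codon the stretch is identical to its end.

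RpL34a and RpL34b, with 75% identity of their coding sequences, were the second pair with both copies in use. RpL34a held 41.9% ± 2.35 of the pair in PARIS WT, 45.1% ± 2.51 in PARIS C571A and 42.2% ± 0.985 in TRAP control (SD, n = 3). RpS15Ab held 2.86% ± 0.838 in PARIS WT, 3.61% ± 1.16 in PARIS C571A and 3.5% ± 0.458 in TRAP control of its pair with RpS15Aa, to which it is 98.2% identical (383 of 390 positions), so that its share is uncertain too. The groups overlapped in the shares of RpL34a and of RpS15Ab.

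The copies with a germ line pattern or another function were low, except for RpL7-like in some libraries. RpL10Aa, the duplicate of the tagged protein's gene (66.0% identity), had 0, 0 and 0 counts in PARIS WT, 8, 4 and 7 in PARIS C571A and 6, 12 and 0 in TRAP control. RpS5b, a copy of RpS5a used in the ovary, had 5, 14 and 0 counts in PARIS WT, 23, 0 and 16 in PARIS C571A and 16, 52 and 29 in TRAP control (log2 fold change -2.04 in PARIS WT against TRAP control, adjusted p = 0.7764, and -3.71 without PARIS WT 2). RpLP0-like, the counterpart of the yeast assembly factor Mrt4, had 0, 24 and 58 counts in PARIS WT, 26, 136 and 113 in PARIS C571A and 49, 47 and 57 in TRAP control (log2 fold change -1.14 in PARIS WT against PARIS C571A, adjusted p = 0.9637). This value was -0.34 without PARIS C571A 2, -0.56 without PARIS WT 1 and -1.90 without PARIS WT 3. In CPM the groups overlapped for RpS5b and for RpLP0-like. RpS10a, RpS19b, RpS28a and RpL37-2 had at most 38 counts in any TRAP library, and RpL7-like had 0 counts in 5 of 9 and 677 to 973 in the others.

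RpL24-like, the counterpart of the yeast assembly factor Rlp24 and 49.3% identical to RpL24, was measured in every library. It had 1061, 666 and 1244 counts in PARIS WT, 1157, 1172 and 1998 in PARIS C571A and 940, 607 and 514 in TRAP control. It held 18.9%, 11.3% and 12.2% of the pair in TRAP control, and in the table of the 3 groups it was the only one of the pair with counts in the PARIS libraries. Its log2 fold change in PARIS WT against TRAP control was 0.53 (SE 0.21, adjusted p = 0.3906).

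TRAP control was set against whole brain to see where ribosomal protein mRNAs stood in the pull-down. With 1 whole brain library there is no test, and the SD covers the 3 TRAP control libraries only. On the log2 scale the ratio had a median of -0.56 over the 91 members with counts, -0.50 over complete members and -0.45 over all 14480 genes. Among genes with a mean of at least 50 counts the medians were -0.49 over 85 members and -0.23 over all genes. Lower in every TRAP control library were 52 of 91 members (background 41.1%), and higher in every one 24 of 91 (background 22.3%). More than 2-fold lower in every TRAP control library were 24 of 91 members (background 20.9%), and more than 2-fold higher 8 of 91 (background 10.6%). With library sizes in place of TMM the medians were -1.59 over members and -1.44 over all genes, so single ratios are relative to the scaling.

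Within the family the ratios spread widely. RpL21 had 4997, 6048 and 3946 counts in TRAP control against 81 in whole brain, a log2 ratio of 6.43 ± 0.10. Its whole brain level of 5.92 CPM per kilobase was the lowest of the complete members, whose median there was 888. The rule for complete members looked for 5-fold drops in TRAP libraries only, and a loss of RpL21 counts in whole brain was not tested. Only RpS28b and RpS27 ranked above RpL21, and both were listed at 0 counts in whole brain, as was RpS3. RpL28 with 2.84 ± 0.14 and RpL4 with 2.17 ± 0.14 were the next complete members. At the low end, RpL41, the shortest ribosomal protein known, had 1124, 1317 and 1050 counts in TRAP control against 44650 in whole brain, a log2 ratio of -4.74 ± 0.21. RpL7-like ranked low through 0 counts in 2 TRAP control libraries. RpL30 (-3.49 ± 0.06), RpL39 (-3.42 ± 0.05), RpL29 (-3.38 ± 0.13) and RpL38 (-3.05 ± 0.25) followed, all proteins of the large subunit. RpL10Ab was 0.49 ± 0.13 above whole brain.

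The low ratios lay mostly with short transcripts. Complete members with a canonical transcript of up to 450 bases (3 genes) had a median log2 ratio of -3.42, the next class up to 600 bases (9 genes) -1.22, the next up to 800 bases (23 genes) -0.45 and those over 800 bases (34 genes) -0.22. All genes with a mean of at least 50 counts gave medians of -3.05, -1.22, -0.71 and -0.23 in the same classes, so length and ratio went together outside the family as well. Across the 69 complete members the correlation of ratio and length was r = 0.34 and rho = 0.38, over points that share the same 4 libraries. Over all genes with a mean of at least 50 counts it was weaker, with r = 0.22 and rho = 0.24. Among those of at most 2000 bases it was r = 0.12 and rho = 0.07. RpL30 and RpL38 were low with longer annotated transcripts, and RpL21, with 662 bases, was high. For these 3 genes the canonical transcript was also the longest annotated one. Which transcript was present in the libraries was not tested.

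**Figure D4:**
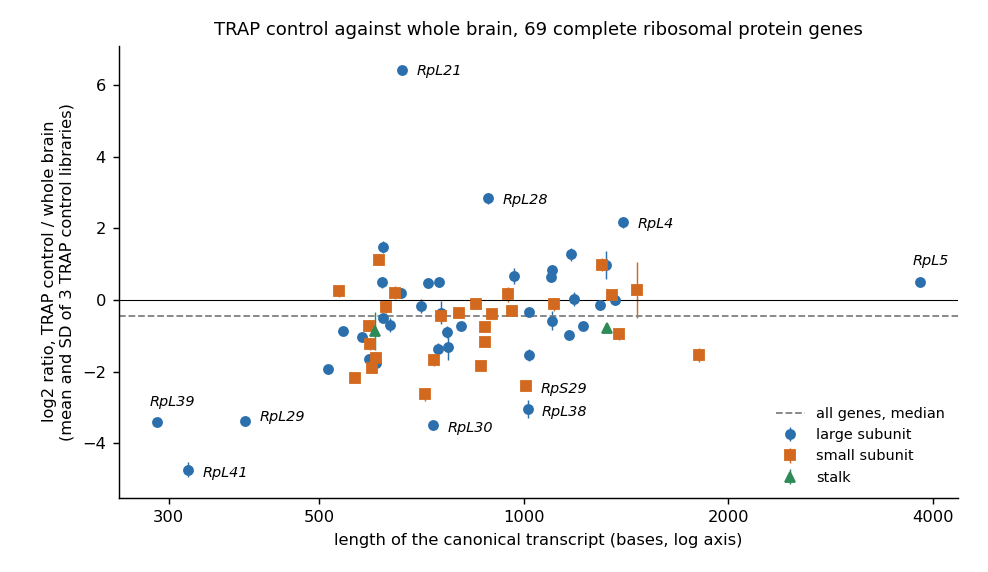
Log2 ratio, TRAP control to whole brain (mean and SD of the 3 TRAP control libraries against 1 whole brain library) of the 69 complete members, by the length of the canonical transcript in bases on a log axis. Colours and symbols mark the subunit and the dashed line is the median of all genes. RpL41, RpL39 and RpL29, the shortest transcripts, lie below -3, and RpL21 lies above 6.

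Transcript length and the TCTTT motif were set beside the fold changes as a description. The median log2 fold change in PARIS WT against TRAP control was 0.47 in 12 complete members with transcripts of up to 600 bases and 0.41 in 23 with longer ones of up to 800 bases and 0.38 in 34 over 800 bases. It was 0.42 in 34 complete members with TCTTT in the 30 bases around the start and 0.39 in 35 without it.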

How the data were processed

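TRAP-seq libraries of PARIS WT, PARIS C571A and TRAP control (3 each, independent biological samples per the labels) and 1 whole brain library were analysed. The authors aligned reads with HISAT2 2.1.0 to the Ensembl BDGP6.28 genome and annotation, and the deposited values are estimated counts per gene from StringTie 2.0 with its correction for multi-mapped reads, not normalized, in 5 tables made for different sets of groups. These counts depend on how StringTie assigns reads. Entries without a gene (at most 0.0209% of counts) were left out. Symbols, positions and lengths came from Ensembl BDGP6.54 (17650 of 17747 identifiers matched) and sequences from RefSeq's genome of the same assembly.

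Each pair was tested within its own table by edgeR 4.0.16 (TMM, filterByExpr at 10 counts per library and 15 in total, quasi-likelihood F-test, Benjamini-Hochberg over all genes, threshold 0.05) in R 4.3.3, with limma 3.58.1 and DESeq2 1.42.0 in support, and figures were drawn with matplotlib 3.10.9. The tests were tried on simulated data. TRAP control and whole brain were compared by log2 ratios with a prior count of 1. Bounds used a floor of 3 counts per library and, like the depth, cover counting error only. Named are members called in a comparison, the 3 smallest p-values in each direction, members at 0 in a group or unequal between tables, extremes of level or whole brain ratio, duplicates, the stalk and RpL10A genes, and for context RpL27A, RpS28b, RpL3, RpL28, RpL4, RpL30, RpL39, RpL29 and RpL38, chosen after their values were seen. Members and lists were chosen with earlier results of these data known. Scaling, filters, the test, the replicate block, the table and left-out libraries were varied. The values of 1 member are not reported here.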

Additional observations from a re-analysis of the deposited data

How the results depend on the processing

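Of the values that answer a comparison, 106 stayed the same under other settings and 20 moved, and with a library left out 81 stayed the same and 6 moved. Members called higher in PARIS WT against TRAP control numbered 1 with a mean of at least 50 counts (RpS29, adjusted p = 0.04977) and 40 with DESeq2, and members called lower numbered 1 with all 3 groups in one fit (RpL24) and 1 with the higher count of the 2 tables (RpL26). Members called lower in PARIS WT against PARIS C571A numbered 2 with DESeq2 and 0 with all 3 groups in one fit, the higher count or the table of the 3 groups, and members called higher 20 with DESeq2 and 1 (RpLP1) with all 3 groups in one fit or the table of the 3 groups. In PARIS C571A against TRAP control, 0 were called lower with the higher count and 3 higher with DESeq2, and the 3-group test called 0 with the higher count. RpLP1 in PARIS WT against PARIS C571A reversed to 16.58, 0.61 and 16.71 with all 3 groups in one fit, the higher count and the table of the 3 groups, and with the higher count RpL24 reversed to 0.38 (PARIS WT against TRAP control) and 0.0785 and RpS7 to 0.79 (PARIS C571A against TRAP control). The counts taken from another table are the cause by construction. With library sizes only, the whole brain medians were -1.59 and -1.61 (complete).

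With the replicate number as a block, members called lower numbered 0 in each of the 3 comparisons (RpL24 and RpL26 in PARIS WT against TRAP control, adjusted p = 0.1468) and the 3-group test called 1. Same-numbered libraries deviated together with correlations of only -0.03 to 0.07, so the numbers were not taken as pairs.

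With 1 library left out, members called lower ranged from 2 to 3 in PARIS WT against TRAP control (RpS2 joined without TRAP control 2), from 0 to 2 in PARIS WT against PARIS C571A (0 without PARIS C571A 2, where RpLP1 had an adjusted p of 0.05227, and 2 with RpL26 without PARIS C571A 3) and from 2 to 3 in PARIS C571A against TRAP control (RpS27 joined without PARIS C571A 2). The median of PARIS WT against PARIS C571A ranged from 0.22 to 0.33 over members and from 0.23 to 0.36 over complete members, and over complete members that of PARIS WT against TRAP control from 0.34 to 0.49 and that of PARIS C571A against TRAP control from 0.0694 to 0.22. With 3 libraries a group and estimated counts that change with the table, a 0 in one table is no measure of absence, and the whole brain comparison has no replicate.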
